A study of Mus musculus with 6 samples.

Results

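Ribosome footprints on 7 cytoskeletal genes were followed in resting and activated mouse CD4+ T cells: the alpha-tubulins Tuba1a (ENSMUSG00000072235), Tuba1b (ENSMUSG00000023004) and Tuba1c (ENSMUSG00000043091), the beta-tubulins Tubb5 (ENSMUSG00000001525) and Tubb4b (ENSMUSG00000036752), the microtubule regulator stathmin (Stmn1, ENSMUSG00000028832) and the intermediate filament protein vimentin (Vim, ENSMUSG00000026728). They were chosen by name, as the 7 of 22322 genes in the deposited table whose Ensembl IDs were listed for these proteins. All 7 were found, each in 1 row, and all 7 passed the filter on low counts. Footprints are the short mRNA fragments that ribosomes protect, so their number follows both the amount of an mRNA and the number of ribosomes on it. No mRNA measurement was used here, and the contributions of mRNA amount and ribosome density to a change cannot be told apart, nor can fewer cells of a kind and less RNA per cell.

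Microtubules are hollow polymers of alpha- and beta-tubulin dimers. In T cells they carry the organelle traffic that polarises towards an antigen-presenting cell, and in dividing cells they form the spindle. Several genes encode near-identical tubulins, called isotypes, whose mix differs between tissues. Cells also sense their own pool of unassembled tubulin: when it is high, a cofactor recognises the first amino acids of tubulin chains as they leave the ribosome, and the mRNA being translated is degraded. Stathmin binds unassembled tubulin dimers and favours microtubule shrinkage, an activity that phosphorylation turns off. Vimentin builds the intermediate filament cage of lymphocytes and other cells of mesenchymal or blood origin.

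There were 3 libraries of resting and 3 of activated cells, numbered 2, 3 and 4 in both groups. Per the labels, the cells came from spleen and lymph nodes of 6 week old female C57BL/6J mice and were enriched for CD4+ T cells by removal of other cells. Activation used beads coated with antibodies against CD3 and CD28, for a time that the labels do not state. All 6 libraries were untreated with respect to the inhibitors of transcription and translation used elsewhere in the study, and no allele or transgene is named. The labels call the libraries biological replicates without saying whether each came from its own animal, so p-values measure only the spread between these libraries. Counts inside coding sequence (CDS) summed to between 437200 and 1074656 per library. The table pairs no gene with a name, so markers of CD4+ T cells and of other cell types were not checked, and genes other than the 7 are given by ID.

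The 3 alpha-tubulin genes lie close together on chromosome 15: Tuba1b at chr15:98931429-98934390, Tuba1a at chr15:98949847-98953501 and Tuba1c at chr15:99029891-99038105. Tubb5 lies at chr17:35833920-35838301, Tubb4b at chr2:25222158-25224702, Vim at chr2:13574311-13582826 and Stmn1 at chr4:134468320-134473843. These are gene spans from RefSeq for GRCm38.p6, the assembly that mm10 names. RefSeq promoter sequences were given for 6 of the 7 genes, all but Stmn1, and a short stretch of each is shown as context for genes that encode near-identical proteins. Capitals mark 1 promoter motif per gene, described after the stretches, and each stretch is read 5′ to 3′ on the strand of its gene.
Tuba1a: gacagagctgtaTATAAggagccgcatccg
Tuba1b: cagcgaccgcgcCCGCCCctccccagctgc
Tuba1c: tgcttaggacccATTGGaggcaactgagac
Tubb5: ctggctcagaaaCCAATggccgcctggcac
Tubb4b: cgttctgaaagcCCAATcctgtgctgacga
Vim: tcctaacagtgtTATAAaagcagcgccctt
The stretches of Tuba1a (chr15:98953562-98953591, minus strand) and Vim (chr2:13574267-13574296, plus strand) hold TATAA, the core of a TATA box, starting 78 and 32 bases before the annotated gene start. TATAA on the gene's strand occurs within 100 bases before the start in 7.5% of 32851 promoters of this length. Those of Tubb5 (chr17:35838374-35838403, minus strand), Tubb4b (chr2:25224704-25224733, minus strand) and Tuba1c (chr15:99029728-99029757, plus strand) hold CCAAT or its reverse complement ATTGG, which 33.8% of the promoters hold somewhere in their 250 bases before the start. The stretch of Tuba1b (chr15:98934468-98934497, minus strand) holds CCGCCC, the reverse complement of the GC box GGGCGG, found on either strand in 32.7% of promoters. Several genes hold more than the motif shown. Over the 250 bases and both strands, Tuba1a also holds 1 CCAAT and 1 GC box, and Tuba1b holds 2 GC boxes. Tubb4b holds 5 CCAAT and 1 GC box, Tubb5 holds 2 CCAAT, and Vim holds 2 CCAAT beside its 2 TATAA. A match is a description of letters only. In the first 50 transcribed bases, the longest run of bases shared by any of the 3 alpha-tubulin genes was 8 for Tuba1a and Tuba1b, 9 for Tuba1a and Tuba1c, and 6 for Tuba1b and Tuba1c. For Tuba1b and Vim, genes of different families, the longest run was 7. No background for runs of 8 or 9 was computed, and they are not read as shared leader sequence.

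Activated cells carried more CDS footprints than resting cells on Tuba1c (4.92-fold), Tuba1b (1.87-fold) and Tubb4b (1.68-fold) and fewer on Stmn1 (4.11-fold fewer). These 4 of the 7 genes passed an adjusted p of 0.05 in edgeR's quasi-likelihood test across 6775 genes, 3 upward and 1 downward, against a background of 45.5% of all genes tested (24.1% upward, 21.4% downward). Tuba1a and Tubb5 had lower and Vim had higher values in activated libraries, but these 3 did not pass in this fit. With a block for replicate number all 3 passed (edgeR adjusted p = 0.0475, 0.0367 and 0.0250). The labels do not state whether the numbers pair the libraries. In all 7 genes the 3 activated values lay wholly above or wholly below the 3 resting ones, as in 54.8% of all genes tested. They lay above in 4 of the 7 (Tuba1b, Tuba1c, Tubb4b and Vim), against 28.1% of all genes. The median log2 change was 0.40 over the 7 genes and -0.04 over all genes tested. With 7 genes, 4 calls lie near the background share, and the count is not read as a result about the genes as a set.

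**Figure D1:**
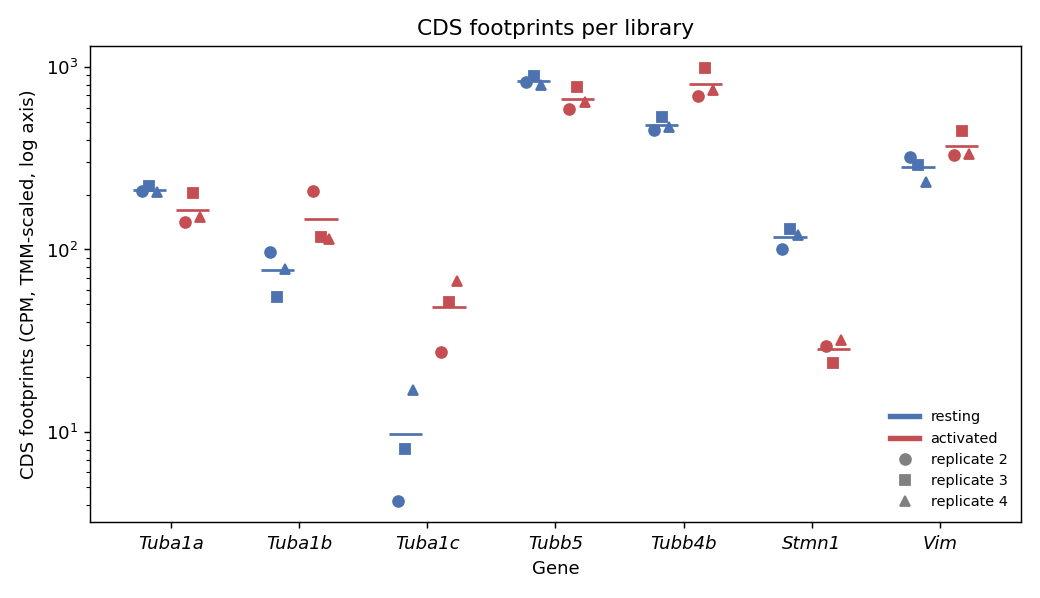
CDS footprints of each gene in CPM (TMM-scaled, logarithmic axis), with 1 point per library, the marker shape giving the replicate number and horizontal lines giving group means. Stmn1 lies at 101 to 130 CPM in resting and 23.9 to 31.9 CPM in activated libraries, while the groups of Tuba1a, Tubb5 and Vim nearly touch.

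Tuba1c, a minor alpha-tubulin isotype in these counts, showed the widest rise. Its CDS level was 4.21, 8.11 and 16.9 CPM in the resting libraries and 27.3, 51.5 and 67.1 CPM in the activated ones, given in the order of replicates 2, 3 and 4 here and from here on. CPM is the count relative to library size after TMM scaling, a correction for differences in library composition. Every activated library was above every resting library, and the resting values rest on 2, 5 and 11 records against 12, 41 and 63. The log2 change was 2.30 (SE 0.42, edgeR adjusted p = 3.41e-04, n = 3 per group), 2.96 without resting replicate 4 and 1.72 in intersection-nonempty counts.

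Tuba1b, an alpha-tubulin found in nearly all cell types, had 96.7, 55.1 and 78.4 CPM in the resting and 209, 117 and 114 CPM in the activated libraries. The activated replicate 2 library stood highest of its group. The log2 change was 0.90 (SE 0.26, edgeR adjusted p = 0.00964). Without resting replicate 3 it was 0.72 and missed the threshold (edgeR adjusted p = 0.0596), and with library totals in place of TMM scaling it was 0.56 (edgeR adjusted p = 0.0745). In intersection-nonempty counts, a more permissive count of CDS records, it was 0.47 (edgeR adjusted p = 0.0393). In exon counts, which add the untranslated regions to that permissive count, it was 0.42 (edgeR adjusted p = 0.0225).

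Tuba1a, the isotype best known from neurons, went the other way. Its level was 208, 222 and 207 CPM in resting and 141, 205 and 150 CPM in activated libraries, so activated replicate 3 came close to the resting range. The log2 change of -0.35 (SE 0.17) did not pass in the main fit (edgeR adjusted p = 0.105). It passed without activated replicate 3 (-0.51, edgeR adjusted p = 0.0347). It also passed with CDS records counted in the more permissive intersection-nonempty mode, where the log2 change was -0.72 (edgeR adjusted p = 0.00424), and with library totals alone (-0.69, edgeR adjusted p = 0.00324).

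Tubb5 and Tubb4b, both widely expressed beta-tubulins, had the highest record counts of the 7 genes, 2945 and 2645 CDS records over the 6 libraries. Tubb4b had 452, 532 and 467 CPM in resting and 695, 993 and 747 CPM in activated libraries. Its lowest activated library was above its highest resting library, and it rose by 0.75 on the log2 scale (SE 0.16, edgeR adjusted p = 0.0014). Tubb5 had 824, 897 and 793 CPM in resting and 586, 782 and 643 CPM in activated libraries. Here the resting libraries were the higher ones, with a narrow gap between resting replicate 4 and activated replicate 3, and the log2 change of -0.32 (SE 0.15) did not pass (edgeR adjusted p = 0.0952). It passed with library totals alone (-0.66, edgeR adjusted p = 0.00193) and in exon counts (-0.55, edgeR adjusted p = 0.0107).

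Stmn1 showed the most significant change of the 7 genes. Its CDS level was 101, 130 and 120 CPM in resting and 29.5, 23.9 and 31.9 CPM in activated libraries, from 48, 80 and 78 against 13, 19 and 30 records. The 3 activated libraries lay close together, far below the resting ones. Footprints fell by 2.04 on the log2 scale (SE 0.23, edgeR adjusted p = 2.14e-06). All 16 alternatives kept the fall past the threshold, at log2 changes between -2.37 and -1.89.

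Vim had 322, 289 and 235 CPM in resting and 329, 444 and 334 CPM in activated libraries. Only activated replicate 3 stood clearly above resting replicate 2. The log2 change of 0.40 (SE 0.17) did not pass (edgeR adjusted p = 0.0678). It passed without activated replicate 2 (0.49, edgeR adjusted p = 0.0277) and without activated replicate 4 (0.51, edgeR adjusted p = 0.0341). With library totals alone, which put the median of all genes at -0.38, it was 0.06 (edgeR adjusted p = 0.779).

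Tubulin footprints were also summed over the isotypes. The 5 tubulin genes together reached 1621 ± 81.7 CPM in resting cells against 1843 ± 266 CPM after activation (SD, n = 3). The 3 alpha-tubulins summed to 299 ± 12.2 and 361 ± 25.6 CPM, and the 2 beta-tubulins to 1322 ± 93.1 and 1482 ± 259 CPM. The alpha sums did not overlap between groups, while the beta sums did, with activated replicates 2 and 4 at 1282 and 1390 CPM inside the resting range of 1260 to 1429 CPM. The sums of all 5 overlapped too, with activated replicate 2 at 1659 CPM below resting replicate 3 at 1714 CPM. All these sums depend on the TMM scaling, whose factors differed by group. The factors were 1.122, 1.122 and 1.13 in the resting and 0.88, 0.893 and 0.894 in the activated libraries. No other scaling was run on the sums, so their direction and the gap between the alpha sums are not read as results. Only records that align to 1 place were counted, so positions that the isotypes share add nothing to any of these sums.

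Within the family sums, the mean share of Tubb5 was lower and that of Tubb4b higher in activated cells, as was that of Tuba1a against Tuba1b and Tuba1c. Tubb5 held 64.6%, 62.8% and 62.9% of beta-tubulin CDS records in the resting libraries, against 45.7%, 44.1% and 46.2% in the activated ones. The larger partner was thus Tubb5 in each resting library and Tubb4b in each activated library, and the difference of -18.1 percentage points compares with SDs of 1.00 and 1.15 within the groups. Tuba1a held 71.2 ± 5.75% of alpha-tubulin CDS records before and 45.9 ± 8.78% after activation (SD, n = 3). Tuba1b went from 25.5 ± 6.00% to 40.4 ± 13.1%, and Tuba1c from 3.26 ± 2.14% to 13.8 ± 6.51%. For Tuba1b the groups came within a fraction of a percentage point, at 31.29% in resting replicate 2 and 31.31% in activated replicate 3. Without activated replicate 2 the rise in its share was 7.36 percentage points, against 14.9 with all libraries. None of these 4 shares overlapped between groups. For Tubb5 and Tuba1a this follows from the CDS levels above, where they were lower and their partners higher in each activated library. It is therefore no separate evidence, and the 3 alpha-tubulin shares depend on each other because they divide 1 sum. The exact two-sided permutation p of each share was 0.1 (0.1 after adjustment over the 4), the smallest that 3 against 3 libraries can give. The shares describe uniquely aligned records and not protein amounts, since the isotypes may differ in how much of their sequence is unique.

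**Figure D2:**
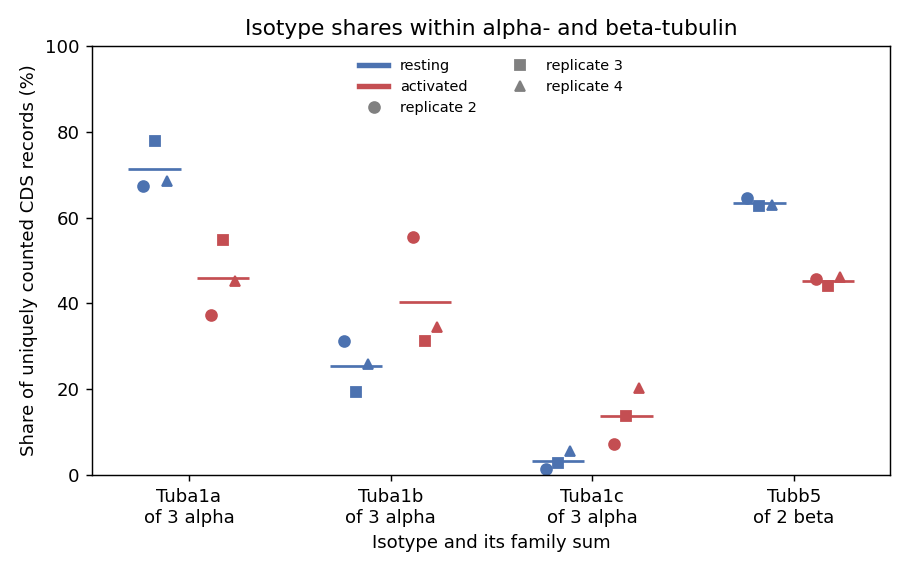
Share of each isotype in the uniquely counted CDS records of its family (percent), with 1 point per library and horizontal lines at group means. The Tubb5 share lies between 62.8% and 64.6% in resting and between 44.1% and 46.2% in activated libraries; the Tubb4b share is the remainder.

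Where the counted records lay on the mRNA differed strongly between the isotypes. The table separates records in the 5' UTR, the leader that precedes the start codon, from those in CDS, and counts the CDS in 2 modes. Records counted only in the more permissive mode are called border records here and are read as lying partly outside the CDS. The file headers do not name the stricter mode or say which edge a record crosses. Over all genes and the 3 resting libraries, 77.5% of exonic records lay inside the CDS, 8.86% were border records and 11.3% lay in the 5' UTR.

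The alpha-tubulins had few records inside the CDS. In resting cells 22.2% of the 590 Tuba1b records and 19.8% of the 91 Tuba1c records lay inside it, and 48.5% of the 765 Tuba1a records. Border records made up 36.4% for Tuba1b, 56.0% for Tuba1c and 42.0% for Tuba1a. Among 6023 genes with at least 100 CDS and border records in all, the share of border records in that sum had a median of 6.6%. It was 53.9% for Tuba1b, above 99.4% of those genes, 62.6% for Tuba1c, above 99.6%, and 39.4% for Tuba1a, above 98.6%. The beta-tubulins and vimentin lay below that median, at 3.5% for Tubb5, 4.8% for Tubb4b and 5.5% for Vim. Stmn1, which is not a tubulin, was at 28.0%, above 96.4% of those genes, so a high share was not particular to the alpha-tubulins. Because shared coding positions drop out of the count, the alpha-tubulin shares cannot be told apart from a loss of records inside the CDS. The CDS changes of Tuba1a, Tuba1b and Tuba1c thus rest on the parts of their CDS that align to 1 place.

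**Figure D3:**
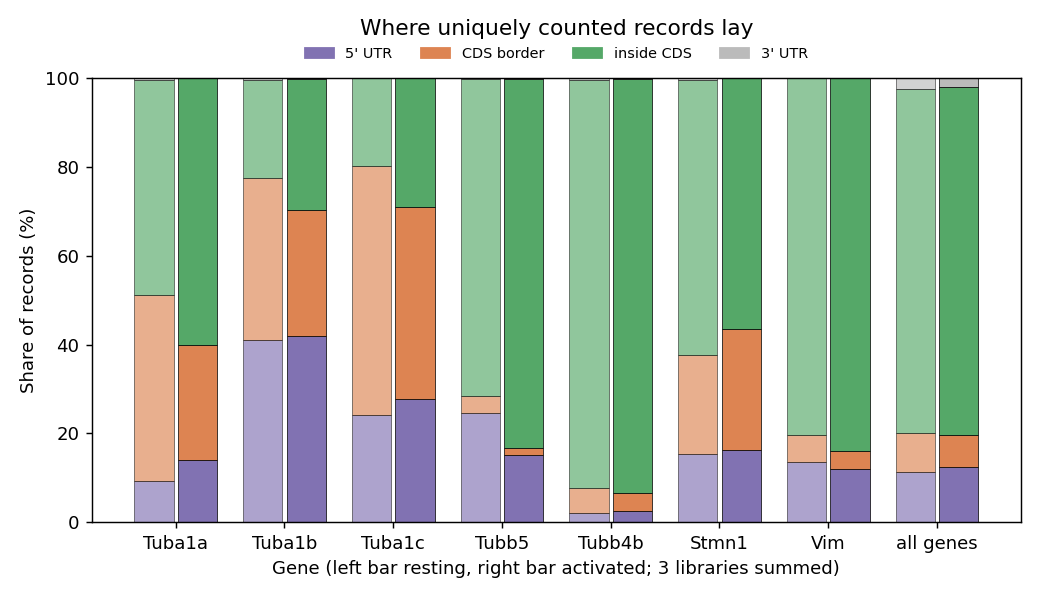
Share of records (percent) in the 5' UTR, at the CDS border, inside the CDS and in the 3' UTR for each gene and for all genes summed, with resting cells in the left and activated cells in the right bar, 3 libraries summed in each. Tuba1b and Tuba1c have the smallest shares inside the CDS, 22.2% and 19.8% in resting cells, and Tubb4b has the largest, 91.9%.

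Tubb5 had fewer footprints on its leader in activated cells. The 5' UTR of Tubb5 had 125, 205 and 175 records in the resting and 33, 113 and 123 in the activated libraries, or 2334, 2582 and 2363 against 431, 1041 and 1026 CPM of 5' UTR counts. The highest activated library was below the lowest resting library by a wide margin. The log2 change was -1.53 (SE 0.29, edgeR adjusted p = 6.89e-04), a 2.88-fold fall, where 42% of the 2200 genes tested on 5' UTR counts were called and 19.8% were called downward. It stayed past the threshold without each of the 6 libraries, at log2 changes from -1.68 to -1.21.

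The ratio of leader to CDS footprints of Tubb5 was lower in activated cells, a call that did not hold in all fits. Per 100 CDS records, Tubb5 had 31.9, 37.1 and 33.9 5' UTR records in resting and 12.8, 18.2 and 20.4 in activated libraries, while the figure over all genes was 14.6 ± 0.85 and 16.5 ± 3.09 (SD, n = 3). The activated ratios of Tubb5 thus lay around that of all genes, and the resting ratios were all above it. In a fit of 5' UTR against CDS counts of the same gene, the log2 change of the ratio was -1.25 (SE 0.27, edgeR adjusted p = 0.0205). That fit called 19 of 3670 genes, or 0.518% (12 downward, 0.327%, and 7 upward, 0.191%), with 394 at an unadjusted p under 0.05, and Tubb5 ranked at position 9 by p. Of 9 alternatives, 5 kept the call: without resting replicate 2 (edgeR adjusted p = 0.0453), activated replicate 2 (0.0108) or activated replicate 4 (0.0154), with the replicate block (0.0215) and with the intersection-nonempty CDS column (0.0229). The other 4 did not. Without resting replicate 3 it was -1.32 (edgeR adjusted p = 0.122), without resting replicate 4 it was -1.27 (edgeR adjusted p = 0.184), and without activated replicate 3 it was -1.34 (edgeR adjusted p = 0.0631). With 1 scaling for both regions the log2 change was -0.99 (edgeR adjusted p = 0.158). The number of genes called was 8, 2 and 2 without resting replicates 2, 3 and 4, and 23, 6 and 18 without activated replicates 2, 3 and 4.

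**Figure D4:**
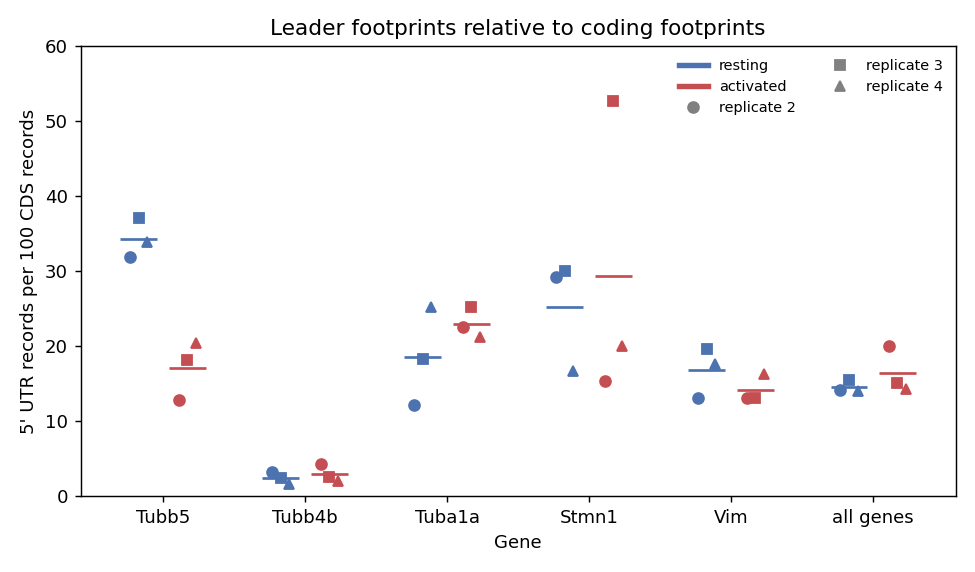
5' UTR records per 100 CDS records in each library for 5 of the genes and for all genes summed, with horizontal lines at group means. Tubb5 lies at 31.9 to 37.1 in resting and 12.8 to 20.4 in activated libraries; Tuba1b and Tuba1c, with ratios up to 271 and 300, are outside the range drawn.

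None of the other 6 genes passed the test of leader against CDS. Tuba1b had 117, 271 and 188 leader records per 100 CDS records in resting and 68.5, 186 and 166 in activated libraries. Tuba1c, on far fewer records, had 300.0, 160.0 and 72.7 in resting and 167, 100.0 and 79.4 in activated libraries, the higher of the pair in replicate 2 of both groups. For Tuba1b the groups overlapped, and the log2 change of the ratio was -0.73 (SE 0.37, edgeR adjusted p = 0.473). On 5' UTR counts alone Tuba1b changed by 0.18 on the log2 scale (SE 0.26, edgeR adjusted p = 0.625). That change was 0.43 with scaling from the CDS (edgeR adjusted p = 0.206). It was 0.02 to 0.43 with each library left out, never past the threshold. Since the ratio test did not pass, the leader and the CDS of Tuba1b are not said to differ in their change. Tubb4b, the partner of Tubb5, had 3.26, 2.44 and 1.64 leader records per 100 CDS records in resting and 4.25, 2.53 and 1.99 in activated libraries. Its leader was thus sparsely covered in both groups, on 67 records in all. Vim had ratios of 13.1, 19.7 and 17.6 in resting and 13.10, 13.03 and 16.2 in activated libraries, near that of all genes and overlapping between groups.

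Tuba1c and Stmn1 moved in the leader as they did in the CDS. Tuba1c had 6, 8 and 8 leader records in resting and 20, 41 and 50 in activated libraries, and rose by 1.73 on the log2 scale (SE 0.34, edgeR adjusted p = 9.34e-04). Stmn1 had 14, 24 and 13 leader records in resting and 2, 10 and 6 in activated libraries, and fell by 2.04 on the log2 scale (SE 0.42, edgeR adjusted p = 0.00132). Both changes were in records that the CDS counts do not include, although they come from the same libraries. In 5' UTR counts the log2 change was -0.30 (SE 0.34) for Tuba1a, 0.67 (SE 0.38) for Tubb4b and -0.08 (SE 0.28) for Vim, none of which passed (edgeR adjusted p = 0.505, 0.178 and 0.834).

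**Figure D5:**
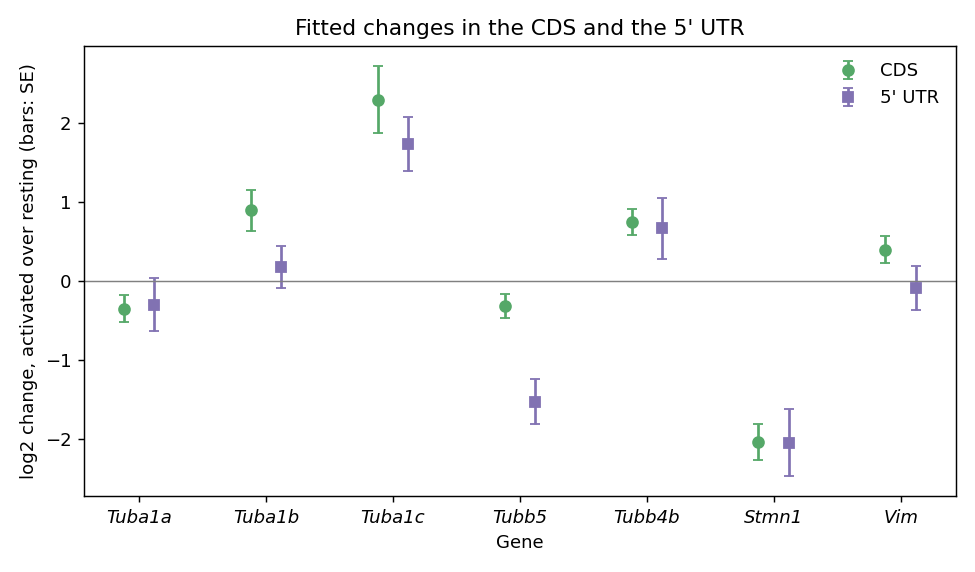
Fitted log2 change, activated over resting, of CDS counts (circles) and 5' UTR counts (squares) for each gene, with bars of 1 SE and each region scaled on its own. Tubb5 has -0.32 in the CDS and -1.53 in the 5' UTR, while the values of Stmn1 are -2.04 in both.

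Border records of Tubb5 and Tuba1a were also lower against CDS records in activated cells, but not past the threshold. Per 100 CDS records, Tubb5 had 4.85, 7.05 and 4.07 border records in resting and 1.55, 2.09 and 1.99 in activated libraries, with no overlap between groups. Tuba1a had 83.8, 98.5 and 76.3 in resting and 21.0, 48.5 and 46.8 in activated libraries, also without overlap. The log2 changes of the ratio were -1.37 for Tubb5 (SE 0.38, edgeR adjusted p = 0.0865) and -1.01 for Tuba1a (SE 0.30, edgeR adjusted p = 0.116). That fit called 7 of 2753 genes, or 0.254%, all of them downward, with 299 at an unadjusted p under 0.05. The count was 3 without resting replicate 3, 2 without activated replicate 2, 0 without activated replicate 3 and 33 without activated replicate 4. Over all genes there were 11.4 ± 0.52 border records per 100 CDS records in resting libraries and 9.10 ± 0.68 after activation (SD, n = 3).

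Few records lay elsewhere on these genes. In the 3' UTR none of the 7 genes had more than 4 records over the 3 libraries of a group, and in introns none had more than 3. Over all genes the 3' UTR held 2.38% of exonic records in resting and 1.82% in activated cells.

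Among 2311 genes with a mean of at least 100 CPM, the profile across the 6 libraries most like that of the 5 tubulins summed belonged to ENSMUSG00000090077.8, and that most like Vim to ENSMUSG00000038776.12. Likeness was the Pearson correlation of log2 CPM, 0.96 and 0.98 over 6 libraries whose depth and scaling all genes share. Each value was picked as the highest of 2311 correlations, so neither is read as a link between genes. Neither gene passed the CDS test, with log2 changes of 0.39 (SE 0.20, edgeR adjusted p = 0.124) and 0.50 (SE 0.23, edgeR adjusted p = 0.0812).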

How the data were processed

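The authors deposited raw counts of ribosome footprint records per gene, in 6 columns for each of 6 libraries, per the file headers: CDS in 2 counting modes, 5' UTR, 3' UTR, exons and introns. The submitters' processing notes name TopHat2 2.0.13, Bowtie 1.1.1.0, HTSeq and mm10. Trimming, removal of ribosomal RNA, annotation release and strandedness were not stated there. Columns were matched to samples by library name. Between 65.8% and 79.6% of records per library aligned to several places and were assigned to no gene, which lowers the counts of near-identical isotypes.

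The whole table was fitted in edgeR 4.0.16 under R 4.3.3 (filterByExpr, TMM, two-sided quasi-likelihood test). Adjusted p-values are Benjamini-Hochberg over every gene in the fit, with 0.05 as the threshold. SE is the log2 change over the square root of F. The 5' UTR was set against the CDS in 1 model with terms per library, for the region and for the region in activated cells, over genes with at least 5 records in 3 libraries in each region. Isotype shares were compared by exact permutation over 20 assignments. The scripts were tested on simulated data. Alternatives were RLE, upper quartile and total scaling, DESeq2 1.42.0, limma voom 3.58.1, other filters and columns, a replicate block and each library left out. Tests of border records and of 5' UTR counts alone, and the promoter motifs, were chosen after seeing the data.

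The members and lists were chosen with earlier results of these data known. The rule for named genes took all 7 members, matched genes of the lists, and the genes most like the summed tubulins (the top 1 of 2 is printed) and Vim. Lists (other tubulins, tubulin folding, microtubule-binding proteins, intermediate filaments) and cell type markers were set by symbol. As 0 of 22322 IDs matched the reference table by Ensembl ID, they were not used here.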

Additional observations from a re-analysis of the deposited data

How the results depend on the processing

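Directions of the 7 CDS changes were the same under all alternatives run (scalings, DESeq2, limma voom, filters, counting columns, the replicate block and each library left out). Tuba1c was not tested under the filter of 20 counts in 3 libraries. The Stmn1, Tuba1c and Tubb4b calls held in each fit that tested them. Upper quartile scaling, with a median of all genes of -0.17, gave -0.49 for Tuba1a and -0.46 for Tubb5, both past the threshold. Library totals alone, under which the median of all genes was -0.38, gave -0.69 for Tuba1a and -0.66 for Tubb5, past the threshold, and 0.56 for Tuba1b, no longer past it. Tuba1a passed in intersection-nonempty counts (-0.72) and in exon counts (-0.68), and Tubb5 in exon counts (-0.55). With no filter Vim passed (0.44). Leaving out each library gave -0.51 to -0.24 for Tuba1a, 0.63 to 1.09 for Tuba1b and 0.27 to 0.51 for Vim. The Tubb5 share of beta-tubulin differed by -21.0 percentage points in exon counts, against -18.1. The 5' UTR against CDS fit called 3 genes with 1 scaling and 2 to 23 with each library left out, against 19. The cause of these changes was not tested.

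Uncalled values that changed sign were the Tuba1a leader ratio (-0.20 to 0.33 with each library left out, against 0.06), the Tuba1c leader ratio in intersection-nonempty counts (0.036, against -0.52), and the Vim 5' UTR change (0.16 with CDS scaling and 0.13 without activated replicate 2, against -0.08; -0.19 to 0.13 with each library left out).

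Same-numbered libraries deviated together with correlations of 0.13, 0.07 and 0.23 for replicates 2, 3 and 4, against -0.16 to 0.0075 for libraries with different numbers. Each library thus correlated best with its own number, a hint from the data and not from a stated design. The library names also run consecutively through the activated and the resting library of each replicate number, but they state no pairing. Whether the numbers pair the libraries is not settled. With a replicate block all 7 genes passed in the CDS, against 4, among them Tuba1a (-0.36), Tubb5 (-0.325) and Vim (0.40), and the count of all genes called went from 3082 to 3446. With the block, border records against CDS called 75 genes, against 7, Tubb5 (-1.38) and Tuba1a (-1.01) among them. Depth limits Tuba1c and Stmn1, at 18 and 62 CDS records in their lower group.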
